A study of Mus musculus with 9 samples.

Results

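The 53 genes described here encode the proteins that copy and divide the genome: 18 act in S phase, 21 in G2 and mitosis (G2/M), and 14 are G1 cyclins, G1 kinases, E2F factors and inhibitors. They were chosen by gene symbol for their textbook roles, by a rule set with earlier results of these data in view, and all 53 were found among the 53077 genes listed for each sample. The samples are 5TGM1 mouse myeloma cells that all express Cas9, in 3 populations with 3 biological replicates each, and their RNA was sequenced. The control population received a gRNA against the *Rosa26* locus, the second a gRNA against *Slc2a1*, which encodes the glucose transporter GLUT1, and the third that gRNA together with gRNAs against the related sugar transporters *Slc2a3*, *Slc2a5*, *Slc2a6* and *Slc2a8* (*Slc2a1/3/5/6/8* gRNA, here the 5 gRNA population). The question for these genes was whether cells with disrupted glucose transporters differed from control cells in the RNA of S phase, of mitosis or of the G1 machinery. The cultures hold edited and unedited cells together, and GLUT1-deficient cells survive less well. Cells of the third population had been sorted for a reporter and expanded before the *Slc2a1* gRNA was added. That sort and expansion therefore cannot be told apart from the 4 added gRNAs in any comparison of this population.

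Before a cell copies its DNA, the loaders Cdc6 and Cdt1 place the MCM helicase on origins, and Cdc45 and the GINS complex then turn it into a moving helicase while ribonucleotide reductase supplies deoxynucleotides. Entry into mitosis is driven by Cdk1 with cyclins A2, B1 and B2 once Cdc25 phosphatases remove its inhibitory phosphates, and exit requires Cdc20, the activator of the anaphase-promoting complex. D cyclins with Cdk4 or Cdk6 and E cyclins with Cdk2 act earlier, by inactivating the retinoblastoma protein and freeing E2F factors, and p27 and p18 hold these kinases back. Many of these genes are transcribed in 1 part of the cycle more than in the others, and in tumours of plasma cells, a cell type that rests once it is mature, their RNA is a usual sign of proliferation. RNA from a mixed culture therefore depends on how many cells are in each phase, and in these bulk samples fewer cells in a phase and less RNA per cell cannot be told apart.

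The libraries held 21838805 to 30537105 estimated counts, and 7 of 8 plasma cell markers were at 1 TPM or more in all 9 samples while all 5 B cell markers stayed under 1 TPM. Of the other markers only *Cd4*, *Cd68* and *Col1a1* reached 1 TPM in any sample, and the summed myeloid level, nearly all *Cd68*, was 57.0 to 97.5 TPM in control, 31.1 to 47.2 with the *Slc2a1* gRNA and 33.3 to 44.2 with the 5 gRNAs. Its part in the results below was not tested. *Slc2a1* itself was at 59.5, 26.9 and 32.9 TPM in the control replicates, 37.1, 28.3 and 31.4 with the *Slc2a1* gRNA and 24.1, 31.5 and 19.1 with the 5 gRNAs, so that RNA level did not separate control from the *Slc2a1* gRNA population. The study itself reports a significant drop of *Slc2a1* RNA in the deleted cultures, with fewer GLUT1-positive cells and less uptake of labelled glucose. Mitochondrial genes took 4.84 to 11.1% of counts.

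The start regions of these genes carry letters, some of which the cell cycle classes share unequally. Promoter windows from RefSeq (build GRCm38.p6, 250 bases before to 50 after each start) were matched by symbol for 40 of the 53 genes, and 4 motifs were searched on both strands: the E2F-type octamers TTTGGCGC and TTTCCCGC, the cell cycle homology region (CHR) TTTGAA, and the CCAAT box. The letters CHR TTTGAA occurred in 10 of 15 G2/M genes (66.7%), in 3 of 14 S phase genes (21.4%) and in 17.9% of all 32851 windows. Either E2F octamer occurred in 7 of 14 S phase genes (50%), in 0 of 15 G2/M genes and in 1.56% of all windows. CCAAT was found in 14 of 15 G2/M genes (93.3%), in 11 of 14 S phase genes (78.6%) and in 37.4% of windows, and no motif lies inside another. At least 2 CCAAT boxes occurred in 60% of G2/M genes, 57.1% of S phase genes and 11.7% of windows. Of 11 G1 genes with a window, 2 had TTTGAA (18.2%), 3 an E2F octamer (27.3%) and 7 CCAAT (63.6%). A match describes these letters only. The 150 bases before the start are shown for 4 G2/M genes and 3 S phase genes that the expression results return to, to let the CCAAT and CHR arrangement be set beside the E2F octamers. They come from chr10:69352913-69353062 (minus strand, *Cdk1*), chr4:118437344-118437493 (minus, *Cdc20*), chr9:70421555-70421704 (minus, *Ccnb2*), chr11:99024190-99024339 (minus, *Top2a*), chr8:75109359-75109508 (plus, *Mcm5*), chr1:128359706-128359855 (minus, *Mcm6*) and chr11:98908001-98908150 (plus, *Cdc6*). Capitals mark the searched motifs, or their reverse complements where a motif lies on the other strand.
Cdk1: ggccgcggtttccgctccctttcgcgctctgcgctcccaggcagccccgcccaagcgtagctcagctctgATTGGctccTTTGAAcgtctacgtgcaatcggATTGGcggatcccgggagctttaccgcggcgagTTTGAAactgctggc
Cdc20: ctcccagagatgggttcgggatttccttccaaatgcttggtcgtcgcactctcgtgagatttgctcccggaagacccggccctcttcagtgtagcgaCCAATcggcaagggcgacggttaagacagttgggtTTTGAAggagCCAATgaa
Ccnb2: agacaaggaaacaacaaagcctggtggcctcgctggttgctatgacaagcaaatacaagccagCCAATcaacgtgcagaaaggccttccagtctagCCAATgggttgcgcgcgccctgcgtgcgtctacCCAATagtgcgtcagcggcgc
Top2a: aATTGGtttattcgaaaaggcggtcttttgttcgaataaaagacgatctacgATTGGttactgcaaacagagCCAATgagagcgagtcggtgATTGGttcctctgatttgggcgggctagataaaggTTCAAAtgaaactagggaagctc
Mcm5: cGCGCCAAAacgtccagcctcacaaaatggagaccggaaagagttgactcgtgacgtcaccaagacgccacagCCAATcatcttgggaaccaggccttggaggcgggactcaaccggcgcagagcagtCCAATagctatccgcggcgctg
Mcm6: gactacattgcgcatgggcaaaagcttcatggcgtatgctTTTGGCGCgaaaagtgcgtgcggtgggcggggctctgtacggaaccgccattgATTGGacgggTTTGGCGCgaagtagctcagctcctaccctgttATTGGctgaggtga
Cdc6: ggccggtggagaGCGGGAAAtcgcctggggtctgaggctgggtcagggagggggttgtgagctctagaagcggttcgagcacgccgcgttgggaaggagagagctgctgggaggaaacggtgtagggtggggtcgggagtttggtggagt
*Cdk1* and *Cdc20* show TTTGAA at 15 and 18 bases before the start, each with a CCAAT box upstream of it, whereas *Mcm6* has 2 copies of TTTGGCGC among its CCAAT boxes. In *Ccnb2* CCAAT boxes begin 87, 54 and 21 bases before the start, and its TTTGAA copies lie outside the stretch shown.

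The clearest result was a lower level of mitotic RNA in the 5 gRNA population. Of the 20 G2/M genes that passed the filter on low counts, 17 fell (85.0%), against 7.44% of all 13834 genes tested that fell and 15.9% that changed in either direction. The median log2 fold change of these 20 genes was -0.54, beside 0.0072 for all genes tested, and the 18 S phase genes had a median of -0.051 with 3 genes that fell. Over the 51 members tested, 24 changed (47.1%): 22 fell and 2 rose, where 8.49% of all genes rose. Fold changes are from edgeR's quasi-likelihood test on estimated counts, with the replicate number as a block and Benjamini-Hochberg adjustment over all genes, and a gene is called changed at an adjusted p under 0.05. With the *Slc2a1* gRNA alone 5 of 51 members changed (9.80%), beside 4.64% of all genes in that comparison. Both comparisons use the same control samples, so their values are given side by side and not as support for each other.

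**Figure D1:**
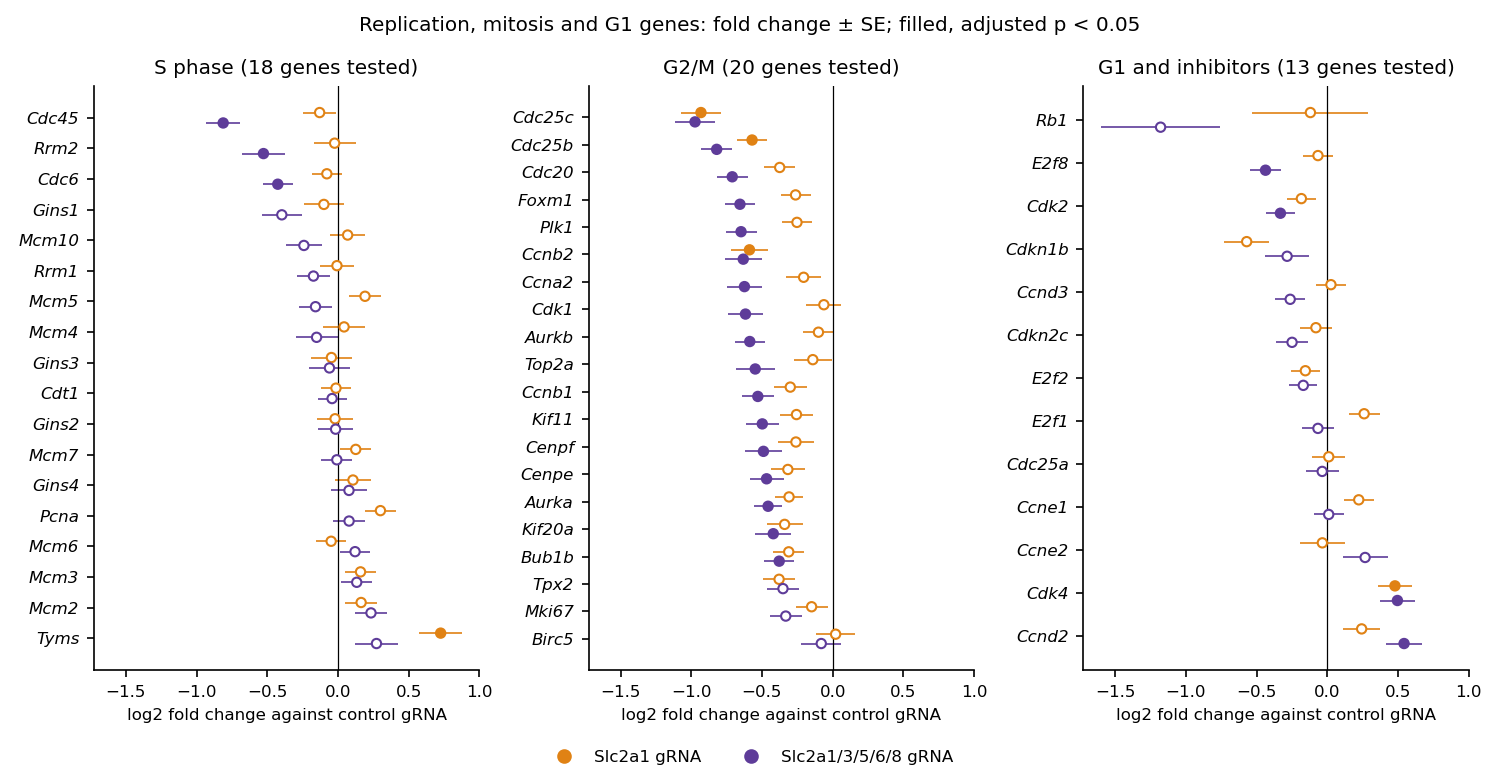
Log2 fold change against control gRNA (x axis) with its standard error for the 51 members tested, by class, for the *Slc2a1* gRNA (orange) and *Slc2a1/3/5/6/8* gRNA (purple) populations. Filled points passed an adjusted p of 0.05. With the 5 gRNAs 17 of 20 G2/M genes are filled and all 20 lie left of 0, while the S phase genes lie on both sides of 0 and 3 of them, *Cdc45*, *Rrm2* and *Cdc6*, are filled.

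Among the 20 G2/M genes tested, the Cdc25 phosphatases had the largest drops with the 5 gRNAs. Levels of single genes are CPM values, counts scaled by edgeR to the size of each library with TMM, in the order of replicates 1, 2 and 3. *Cdc25b*, which activates *Cdk1* at the G2/M boundary, was at 152, 148 and 128 CPM in control, 93.6, 100.1 and 93.4 with the *Slc2a1* gRNA and 87.6, 87.7 and 67.8 with the 5 gRNAs. Every control replicate lay above every replicate of the other populations. It fell by 0.57 on the log2 scale (SE 0.11, adjusted p = 0.017) with the *Slc2a1* gRNA and by 0.82 (SE 0.11, adjusted p = 0.000744) with the 5 gRNAs, a 1.77-fold lower level. *Cdc25c*, its relative that acts at mitotic entry, was at 28.8, 30.9 and 21.1 CPM in control, 13.5, 15.1 and 13.2 with the *Slc2a1* gRNA and 16.8, 13.3 and 11.0 with the 5 gRNAs. Again the controls did not overlap either population, while the 2 gRNA populations overlapped each other. The drop was 0.93 (SE 0.14, adjusted p = 0.00806) with the *Slc2a1* gRNA and 0.97 (SE 0.14, adjusted p = 0.00144) with the 5 gRNAs, or 1.96-fold. Part of the exonic length of *Cdc25c* (12.7%) overlaps the gene model *Gm3550* on the other strand, and the SMARTseq kit named in the labels does not mark strand.

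The mitotic cyclins were lower as well. *Ccnb2*, cyclin B2, was at 95.9, 93.0 and 64.1 CPM in control, 54.4, 54.5 and 56.2 with the *Slc2a1* gRNA and 64.2, 54.8 and 43.9 with the 5 gRNAs. Control replicate 3 was the lowest control and sat just under the highest 5 gRNA replicate. *Ccnb2* fell by 0.59 (SE 0.13, adjusted p = 0.0298, and 0.0512 without the replicate block) with the *Slc2a1* gRNA and by 0.63 (SE 0.13, adjusted p = 0.00853) with the 5 gRNAs. *Ccnb1*, cyclin B1 and the main activating partner of *Cdk1* in mitosis, was at 225, 232 and 172 CPM in control, 196, 162 and 152 with the *Slc2a1* gRNA and 147, 148 and 138 with the 5 gRNAs. All replicates of the 5 gRNA population were below all others, and the *Slc2a1* gRNA and control replicates overlapped. The drop with the 5 gRNAs was 0.53 (SE 0.12, adjusted p = 0.0103). *Ccna2*, cyclin A2, which serves S phase and early mitosis, was at 165, 187 and 117 CPM in control, 146, 139 and 118 with the *Slc2a1* gRNA and 98.1, 103 and 98.3 with the 5 gRNAs. The 5 gRNA replicates were tightly grouped below both other populations, a drop of 0.62 (SE 0.13, adjusted p = 0.00751). *Exosc9* lies across 12.5% of its exonic length on the other strand and had a log2 fold change of 0.28.

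*Cdk1*, the kinase that these cyclins activate, was at 146, 128 and 94.1 CPM in control, 138, 116 and 97.2 with the *Slc2a1* gRNA and 80.1, 76.8 and 78.5 with the 5 gRNAs. Control and *Slc2a1* gRNA cells covered nearly the same range, and the 5 gRNA replicates lay below it. *Cdk1* fell by 0.62 (SE 0.12, adjusted p = 0.0074) against control whereas its value with the *Slc2a1* gRNA was -0.062 on the log2 scale (adjusted p = 0.819). *Foxm1*, a transcription factor that activates G2/M genes, was at 138, 135 and 121 CPM in control, 111, 108 and 109 with the *Slc2a1* gRNA and 77.9, 92.0 and 80.5 with the 5 gRNAs. The 3 populations formed separate steps, and *Foxm1* fell by 0.66 (SE 0.11, adjusted p = 0.00242) with the 5 gRNAs, while the fold change of -0.26 with the *Slc2a1* gRNA did not pass (adjusted p = 0.171). Of the 7 genes for mitotic cyclins, *Cdk1*, Cdc25 phosphatases and *Foxm1*, all 7 fell with the 5 gRNAs and 3 with the *Slc2a1* gRNA, beside 7.44% and 2.39% of all genes.

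**Figure D2:**
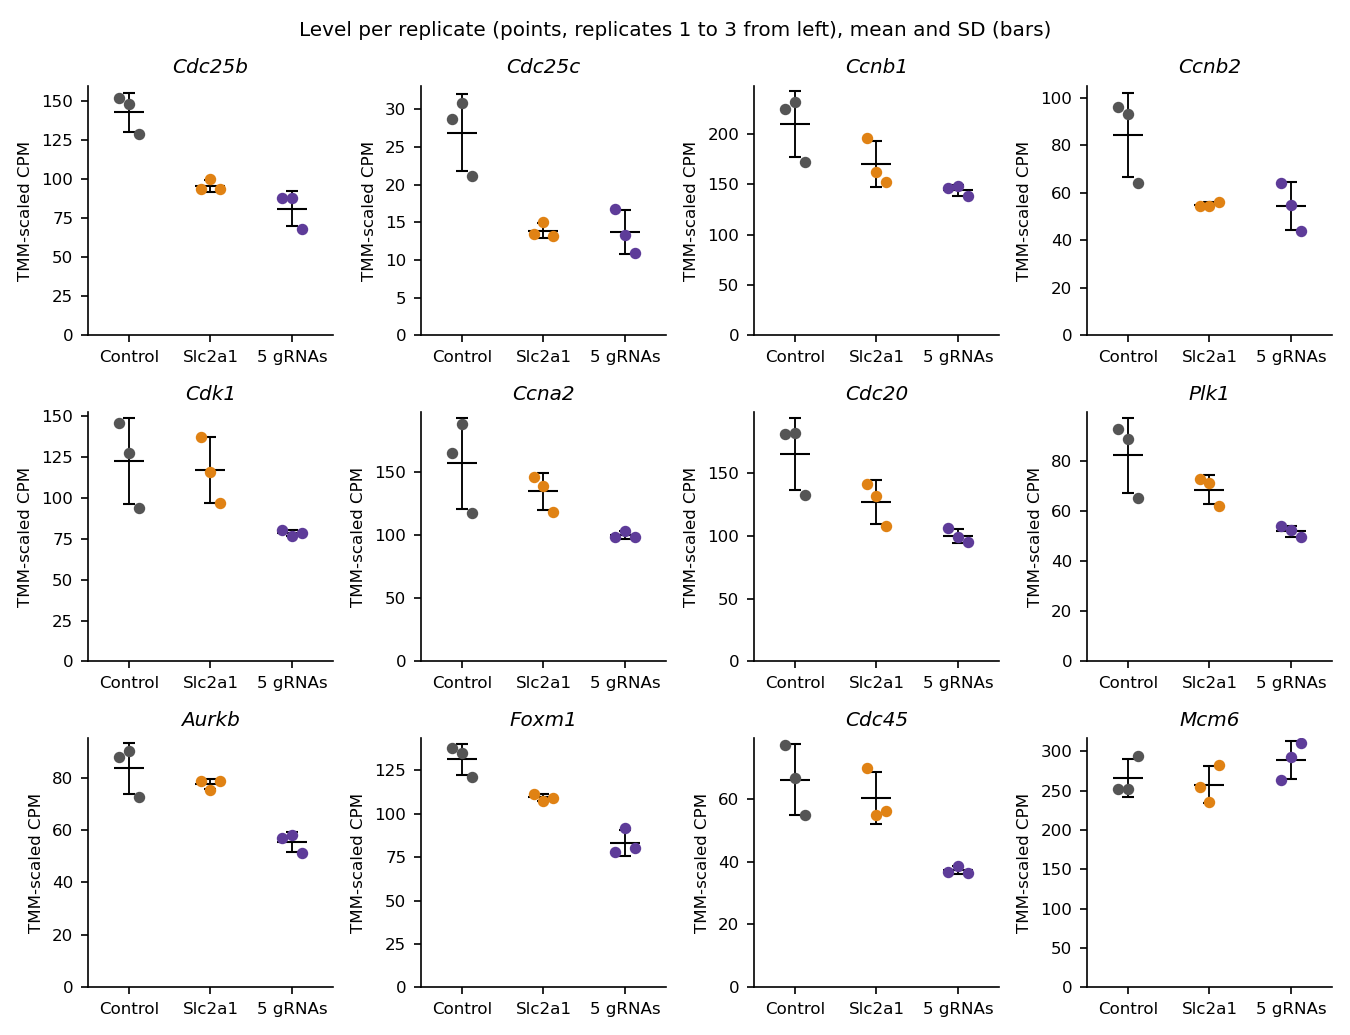
TMM-scaled CPM (y axis, from 0) of 10 G2/M genes, *Cdc45* and *Mcm6* in each replicate of the 3 populations (x axis). Points are replicates, bars the mean and SD of 3. For *Cdc25b* the controls lie at 128 to 152, the *Slc2a1* gRNA replicates at 93.4 to 100.1 and the 5 gRNA replicates at 67.8 to 87.7, and *Mcm6* overlaps in all 3 populations.

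Kinases and checkpoint genes of mitosis were also lower with the 5 gRNAs, in 5 of the 6 that were tested, beside 7.44% of all genes. *Cdc20* was at 181, 182 and 132 CPM in control, 141, 132 and 108 with the *Slc2a1* gRNA and 106, 98.6 and 95.1 with the 5 gRNAs, and control replicate 3 was within the *Slc2a1* gRNA range. It fell by 0.71 (SE 0.11, adjusted p = 0.00189) with the 5 gRNAs, and the fold change of -0.37 with the *Slc2a1* gRNA had an adjusted p of 0.0712. *Plk1*, the Polo-like kinase of mitotic entry and spindle assembly, was at 92.7, 88.7 and 65.2 CPM in control, 72.6, 71.0 and 62.0 with the *Slc2a1* gRNA and 53.9, 52.4 and 49.6 with the 5 gRNAs. The 5 gRNA replicates did not overlap either population, and *Plk1* fell by 0.65 (SE 0.11, adjusted p = 0.00298). *Aurkb*, the Aurora kinase of the chromosomal passenger complex, was at 87.8, 90.1 and 72.5 CPM in control, 78.6, 75.2 and 78.5 with the *Slc2a1* gRNA and 56.9, 58.3 and 51.3 with the 5 gRNAs. Control and *Slc2a1* gRNA replicates overlapped and both stood above every 5 gRNA replicate, a drop of 0.59 against control (SE 0.11, adjusted p = 0.00433). *Aurka*, the Aurora kinase of the spindle poles, was at 58.4, 60.6 and 45.8 CPM in control, 47.9, 46.3 and 38.5 with the *Slc2a1* gRNA and 40.3, 42.0 and 37.0 with the 5 gRNAs, and fell by 0.46 (SE 0.10, adjusted p = 0.0114). *Bub1b*, the checkpoint protein BubR1, fell by 0.38 (adjusted p = 0.0333). *Birc5*, survivin, was the exception at -0.08 (adjusted p = 0.736), with its lowest value, 44.0 CPM, in control replicate 3. *Bub1* was barely detected, with 0 to 8 estimated counts per sample, and was not tested.

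Among the 7 genes for the spindle, kinetochore and chromosomes, 5 fell with the 5 gRNAs, beside the same 7.44% of all genes. *Kif11*, the kinesin-5 motor that separates spindle poles, was at 261, 234 and 221 CPM in control, 212, 185 and 202 with the *Slc2a1* gRNA and 157, 188 and 162 with the 5 gRNAs. Both gRNA populations were below all controls and overlapped each other, and the drop with the 5 gRNAs was 0.50 (SE 0.12, adjusted p = 0.0155). *Top2a*, the topoisomerase that untangles sister chromatids, fell by 0.55 (adjusted p = 0.0191), and the kinetochore proteins *Cenpe* and *Cenpf* fell by 0.47 (adjusted p = 0.0217) and 0.49 (adjusted p = 0.0246). *Kif20a*, a kinesin of the central spindle, fell by 0.42 (adjusted p = 0.0426, and 0.0645 without the block). *Cdc23* lies across 29.3% of the exonic length of *Kif20a* on the other strand and had a log2 fold change of 0.18. The spindle factor *Tpx2* at -0.35 (adjusted p = 0.054) and *Mki67*, the Ki-67 antigen, at -0.33 (adjusted p = 0.0653) did not pass, although in both genes every 5 gRNA replicate was below every control.

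With the 5 gRNAs 19 of the 20 G2/M genes were lower in all 3 same-numbered pairs, beside 26.2% of all genes, and with the *Slc2a1* gRNA 15 of 20 were, beside 25% of all genes. The pairs rest on the replicate number alone, and in the 5 gRNA comparison deviations of same-numbered samples correlated at only -0.065 to 0.162. Pair 3 showed the smallest shift with the *Slc2a1* gRNA, with 15 of 20 genes lower and a median of -0.10 on the log2 scale, against -0.31 and -0.43 in pairs 1 and 2. The summed CPM of the 20 genes was 3353, 3361 and 2745 in control, 2763, 2586 and 2587 with the *Slc2a1* gRNA and 2148, 2406 and 2142 with the 5 gRNAs. All samples of the 5 gRNA population were thus below all others, and control replicate 3 stood apart from the other controls and lay just below the highest *Slc2a1* gRNA sample. In that replicate all 20 genes were below their control mean, with a median of -0.25 on the log2 scale. The summed CPM of the 18 S phase genes was 1779, 1787 and 1714 in control, 2011, 1742 and 1844 with the *Slc2a1* gRNA and 1635, 1698 and 1807 with the 5 gRNAs, with overlap throughout. The ratio of the G2/M to the S phase sum was 1.88, 1.88 and 1.60 in control, 1.37, 1.48 and 1.40 with the *Slc2a1* gRNA and 1.31, 1.42 and 1.19 with the 5 gRNAs. On this ratio the controls did not overlap either population, and the 2 gRNA populations overlapped each other.

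**Figure D3:**
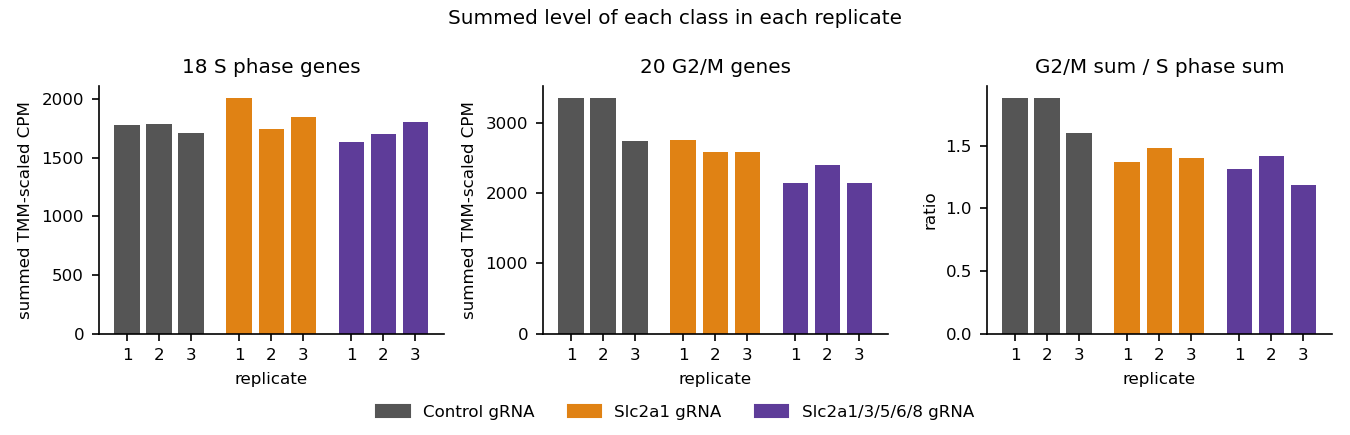
Summed TMM-scaled CPM of the 18 S phase genes (left) and 20 G2/M genes (middle) and the ratio of the sums (right) for replicates 1 to 3 (x axis) of control gRNA (grey), *Slc2a1* gRNA (orange) and *Slc2a1/3/5/6/8* gRNA (purple) populations. Each bar is 1 sample. The G2/M sum is 2142 to 2406 with the 5 gRNAs and 2745 to 3361 in control, and the S phase sums overlap.

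The count of G2/M genes called depended on single libraries more than the fold changes did. Without control replicate 1 the count with the 5 gRNAs was 6 of 20, without control replicate 2 it was 6, and without 5 gRNA replicate 3 it was 10, where 2.05%, 3.23% and 2.81% of all genes fell, while the class median stayed between -0.62 and -0.44 when any library was left out. Without control replicate 3 the count was 12, where 2.63% of all genes fell, and the median -0.62, the lowest of these medians. *Cdc25b*, *Cdc25c*, *Cdc20*, *Aurkb* and *Cdc45* were called in all 17 alternative analyses, and all 24 members called kept their sign in all of them. The other 19 lost their call in 2 to 11 of the 17, and *Kif20a* and *Cdk2* did so in 11.

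With the *Slc2a1* gRNA alone the same class had a median of -0.28, and 3 of the 20 genes tested fell (*Cdc25b*, *Cdc25c* and *Ccnb2*), where 2.39% of all genes fell. The fold change was negative in 19 of the 20, beside 50.2% of all genes, and 13 were lower at an unadjusted p under 0.05, beside 11% of all genes. The number that fell was 11 when only these 2 populations were fitted, where 8.44% of all genes fell, and 5 with DESeq2, where 4.53% did. It was 0 without control replicate 2 or without *Slc2a1* gRNA replicate 2, and then 0.0351% and 0.0625% of all genes fell. Of 17 alternatives the call was lost in 3 for *Cdc25c*, in 6 for *Cdc25b* and in 8 for *Ccnb2*. Leaving out a library gave class medians of -0.36 to -0.21.

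No change was called in the S phase helicase subunits. None of the 6 subunits *Mcm2* to *Mcm7* passed edgeR's test in either comparison with control, 0 had an unadjusted p under 0.05, and DESeq2 called 0. Over all genes edgeR called 4.64% with the *Slc2a1* gRNA and 15.9% with the 5 gRNAs, and 22% and 31.4% had an unadjusted p under 0.05. DESeq2 called 9.07% and 18.9% of all genes. The log2 fold changes of the 6 subunits lay between -0.048 and 0.19 with the *Slc2a1* gRNA and between -0.16 and 0.23 with the 5 gRNAs. The highest of these was *Mcm2* (adjusted p = 0.188), at 154, 154 and 164 CPM in control and 167, 176 and 213 with the 5 gRNAs, where every replicate was above every control. *Mcm6*, the most abundant subunit at 89.3 ± 17.4 TPM in control, was at 252, 253 and 294 CPM in control, 254, 235 and 282 with the *Slc2a1* gRNA and 264, 293 and 311 with the 5 gRNAs, and the 3 populations overlapped. *Mcm5*, whose start region shows an E2F octamer as *Mcm6* does, was at 115, 115 and 90.3 CPM, 137, 121 and 107 and 94.3, 92.3 and 97.6 in the same order, also with overlap between control and either population. Its 5 gRNA replicates were all below the *Slc2a1* gRNA replicates. That difference of -0.35 had an unadjusted p of 0.0102 in edgeR's test and did not pass (adjusted p = 0.124). *Pcna*, the sliding clamp, had log2 fold changes of 0.30 (adjusted p = 0.14) and 0.079 (adjusted p = 0.672), and the loader *Cdt1* of -0.014 and -0.041. The GINS genes *Gins1*, *Gins2*, *Gins3* and *Gins4* ranged from -0.40 to 0.078 with the 5 gRNAs, and none passed (*Gins1*, adjusted p = 0.0759), although every 5 gRNA replicate of *Gins1* was below every control. *Gins2* shares 67.3% of its exonic length with *Gse1* on the other strand, so its level is uncertain for the same reason.

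Within this class *Cdc45* stood out. The helicase cofactor was at 77.0, 66.4 and 54.6 CPM in control, 69.6, 54.8 and 56.1 with the *Slc2a1* gRNA and 36.6, 38.6 and 36.4 with the 5 gRNAs. The 5 gRNA replicates agreed closely and lay below all 6 other samples. *Cdc45* fell by 0.81 (SE 0.12, adjusted p = 0.00144) against control, 1.76-fold, and with the *Slc2a1* gRNA its value was -0.13 on the log2 scale (adjusted p = 0.559). *Ufd1* overlaps 5.96% of the exonic length of *Cdc45* on the other strand. The log2 fold change of *Ufd1* with the 5 gRNAs was -0.31 (adjusted p = 0.0771), and its part in the *Cdc45* value was not tested. The MCM loader *Cdc6* fell by 0.43 (SE 0.11, adjusted p = 0.0191), from 41.6, 45.1 and 41.0 CPM in control to 27.7, 34.3 and 33.3. *Rrm2*, the regulated subunit of ribonucleotide reductase, fell by 0.53 (SE 0.15, adjusted p = 0.0321), while its partner *Rrm1* was at -0.17 (adjusted p = 0.342). Thymidylate synthase, *Tyms*, moved the other way with the *Slc2a1* gRNA. It was at 23.7, 24.9 and 17.2 CPM in control, 43.8, 35.6 and 30.1 with the *Slc2a1* gRNA and 32.1, 20.8 and 26.4 with the 5 gRNAs. All *Slc2a1* gRNA replicates were above all controls, and *Tyms* rose by 0.73 (SE 0.15, adjusted p = 0.022), a call lost in 7 of 17 alternatives (adjusted p up to 0.151). With the 5 gRNAs its fold change of 0.27 did not pass (adjusted p = 0.239). *Mcm10* completes the class at -0.24 (adjusted p = 0.209) with the 5 gRNAs.

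Among the G1 genes *Cdk4* and *Ccnd2* rose, the kinase and cyclin of the D-type complex. *Cdk4* was at 119, 153 and 134 CPM in control, 186, 206 and 174 with the *Slc2a1* gRNA and 199.6, 174 and 197 with the 5 gRNAs. On this CPM scale both gRNA populations lay wholly above the controls. In TPM the *Slc2a1* gRNA replicates, at 125.3, 142.7 and 101.8, overlapped the controls at 96.7, 115.1 and 102.1. The 5 gRNA replicates, at 124.5 TPM or more, stayed above the controls. The rise was 0.48 (SE 0.12, adjusted p = 0.0466) with the *Slc2a1* gRNA, where 2.25% of all genes rose, and 0.50 (SE 0.12, adjusted p = 0.0188) with the 5 gRNAs. *Tspan31* overlaps 19.7% of the exonic length of *Cdk4* on the other strand, and its own log2 fold changes were -0.31 and -0.095. With the *Slc2a1* gRNA the call of *Cdk4* was lost in 9 of 17 alternative analyses, with adjusted p from 0.00248 to 0.577. With the 5 gRNAs it was lost in 5 of 17, with adjusted p from 0.00144 to 0.167. *Cdk6*, the other kinase of D cyclins, had 0 to 2 estimated counts per sample and was not tested.

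*Ccnd2*, cyclin D2 and the most abundant cyclin of the set at 133 ± 20.5 TPM in control, was at 489, 588 and 649 CPM in control, 673, 617 and 736 with the *Slc2a1* gRNA and 649.8, 831 and 1058 with the 5 gRNAs. The 5 gRNA replicates were all above the controls but spread from just above the highest control to far above it. *Ccnd2* rose by 0.54 (SE 0.13, adjusted p = 0.0159, lost in 6 of 17 alternatives) with the 5 gRNAs, and with the *Slc2a1* gRNA the fold change was 0.24 (adjusted p = 0.295). *Ccnd3*, cyclin D3, was at 118, 103 and 99.5 CPM, 109, 107 and 110.0 and 88.9, 92.4 and 85.7 in the same order of populations. All replicates of the 5 gRNA population were below the rest, yet the fold change of -0.26 did not pass (adjusted p = 0.107). The E cyclins, which partner *Cdk2* at the start of S phase, overlapped between control and either gRNA population. *Ccne1* was at 96.3, 81.5 and 82.1 CPM, 114, 93.5 and 96.0 and 88.4, 79.8 and 92.8, and *Ccne2* at 51.8, 82.2 and 65.3 CPM, 56.9, 62.5 and 74.3 and 88.4, 71.0 and 77.6. The 5 gRNA replicates of *Ccne1* were all below the *Slc2a1* gRNA replicates, with a difference of -0.21 that did not pass (adjusted p = 0.3). Their fold changes with the 5 gRNAs were 0.0098 (adjusted p = 0.962) and 0.27 (adjusted p = 0.276), and with the *Slc2a1* gRNA 0.22 (adjusted p = 0.24) and -0.035 (adjusted p = 0.926). *Ints8* overlaps 17.4% of the exonic length of *Ccne2* on the other strand. Its own fold changes were 0.32 (adjusted p = 0.0622) with the 5 gRNAs and 0.13 (adjusted p = 0.504) with the *Slc2a1* gRNA. Its part in the *Ccne2* values was not tested.

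**Figure D4:**
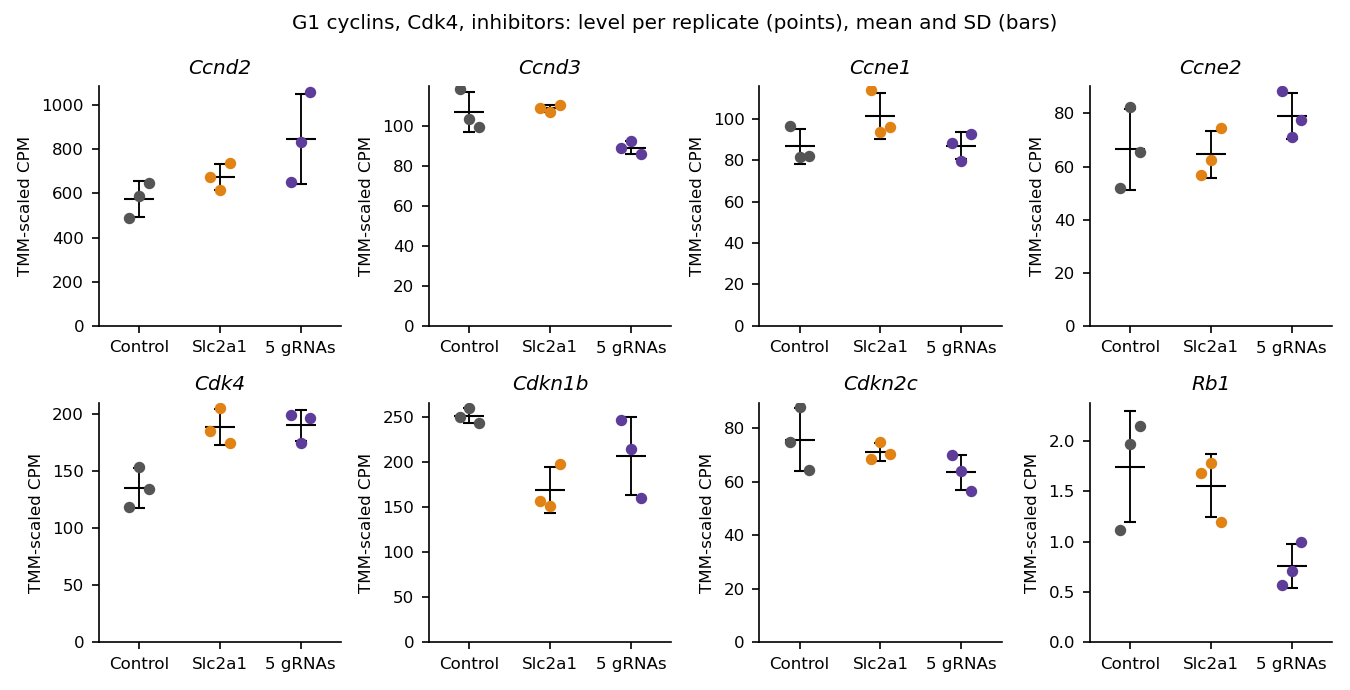
TMM-scaled CPM (y axis, from 0) of the 4 G1 cyclins, *Cdk4* and the inhibitors *Cdkn1b*, *Cdkn2c* and *Rb1* in each replicate of the 3 populations (x axis). Points are replicates, bars the mean and SD of 3. *Cdk4* is at 119 to 153 in control and 174 to 206 in the gRNA populations, and *Ccnd2* reaches 1058 in replicate 3 of the 5 gRNA population.

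None of the 3 inhibitors passed edgeR's test against control, with an unadjusted p under 0.05 for 1 of them with the *Slc2a1* gRNA and 2 with the 5 gRNAs (22% and 31.4% of all genes). DESeq2 called *Cdkn1b* lower with the *Slc2a1* gRNA and none of the 3 with the 5 gRNAs. Of all genes it called 9.07% with the *Slc2a1* gRNA and 18.9% with the 5 gRNAs. The genes it called lower with the *Slc2a1* gRNA were 4.53% of all genes. *Cdkn1b*, which encodes p27, was at 249.9, 260.2 and 243 CPM in control, 157, 152 and 198 with the *Slc2a1* gRNA and 246, 214 and 161 with the 5 gRNAs. The *Slc2a1* gRNA replicates were below all controls, and the 5 gRNA replicates spread over both ranges. The fold change was -0.57 (SE 0.16, adjusted p = 0.0588) with the *Slc2a1* gRNA, past the threshold in 8 of 17 alternatives (adjusted p from 0.000369 to 0.290), and -0.28 (adjusted p = 0.238) with the 5 gRNAs. *Cdkn2c*, the *Cdk4* and *Cdk6* inhibitor p18, was at 74.8, 88.0 and 64.4 CPM, 68.3, 74.7 and 70.2 and 69.8, 64.1 and 56.4, with overlap and fold changes of -0.081 (adjusted p = 0.731) and -0.25 (adjusted p = 0.155). *Rb1*, the retinoblastoma gene, was very low in all 3 populations at 1.12, 1.97 and 2.15 CPM, 1.68, 1.78 and 1.20 and 0.572, 0.709 and 0.992, from 13 to 70 estimated counts. The lowest 3 samples were those with the 5 gRNAs, but the fold change of -1.18 (SE 0.42) did not pass (adjusted p = 0.0766). It passed in 1 of 17 alternatives, with at least 10 counts in every sample (adjusted p = 0.0354). *Lpar6* and *Rcbtb2* overlap 14.9% of the exonic length of *Rb1* on the other strand, and their part in its counts was not tested. Of the remaining G1 genes *Cdk2* fell by 0.33 (adjusted p = 0.0446, lost in 11 of 17 alternatives) and the atypical repressor *E2f8* by 0.44 (adjusted p = 0.0187, lost in 6 of 17) with the 5 gRNAs. The gene model *Gm2788* lies across 11.2% of the exonic length of *E2f8* on the other strand and fell by 1.29 in the same comparison (adjusted p = 0.0376), and its part in the *E2f8* value was not tested. *Cdc25a*, *E2f1* and *E2f2* lay between -0.17 and -0.036 and did not pass.

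Per unit of length the members spanned a wide range in control cells. *Cdk1* was the highest at 154 ± 24.8 TPM, followed by *Pcna* at 136 ± 17.6 and *Ccnd2* at 133 ± 20.5, whose values overlap within their spread. *Cdk4* at 105 ± 9.43, *Ccnb1* at 104 ± 6.35 and *Cdc20* at 97.0 ± 8.47 came next and also did not differ beyond their spread. *Mcm6* at 89.3 ± 17.4 and *Cdkn1b* at 89.1 ± 9.73 followed and overlapped *Cdc20*, so no clear boundary lies below it. At the other end stood *Rb1* at 0.352 ± 0.132, *Bub1* at 0.455 ± 0.516 and *Cdk6* at 0.0046 TPM, all from few counts.

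The populations were also compared directly, since a call in 1 comparison with control and not in the other does not show that they differ. In the 5 gRNA population 3 of 51 members (5.88%) differed from the *Slc2a1* gRNA population, where 2.31% of all genes did, and all 3 were lower, as were 0.947% of all genes, with 1.36% higher. *Cdc45* was lower by 0.68 (SE 0.12, adjusted p = 0.0137), *Cdk1* by 0.55 (SE 0.12, adjusted p = 0.0396) and *Aurkb* by 0.49 (SE 0.11, adjusted p = 0.0362). Without the replicate block the adjusted p was 0.0314 for *Cdc45*, 0.116 for *Cdk1* and 0.0617 for *Aurkb*, so that of the 3 only *Cdc45* passed. Over the 17 alternatives the call was lost in 4 for *Cdc45*, in 13 for *Cdk1* and in 14 for *Aurkb*. The class medians of this difference were -0.23 for G2/M, -0.18 for S phase and -0.15 for the G1 genes, beside 0.0034 for all genes. An unadjusted p under 0.05 was reached by 8 of the 20 G2/M genes, 6 of the 18 S phase genes and 5 of the 13 G1 genes, beside 19.1% of all genes. DESeq2 called 8 members, all lower, of which 6 were G2/M genes and 2 the S phase genes *Cdc45* and *Rrm2*, where it called 2.56% of all genes lower and 5.61% in either direction. The 2 genes with the smallest G2/M differences in that direction, *Cdc25c* and *Ccnb2*, differed by -0.042 (SE 0.15) and -0.044 (SE 0.13).

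A wider list of 181 other replication, mitosis and G1 genes, taken by textbook role with the same knowledge of earlier results, was read in the same way. With the 5 gRNAs 44 of 88 tested G2/M genes of that list fell (50%), with a median of -0.41, where 7.44% of all genes fell. Of 58 S phase genes 6 fell and 3 rose, with a median of -0.088, and these 9 genes (15.5%) stand beside 15.9% of all genes that changed. Over all classes 60 of 173 changed (34.7%), 53 lower and 7 higher, and the count was 19, 23 and 31 without control replicates 1, 2 and 3 and 33 without 5 gRNA replicate 3. In these fits 4.45, 6.99, 5.16 and 6.13% of all genes changed, in the same order, against 15.9% in the main fit. The 3 lower genes with the smallest adjusted p were *Cit*, the citron kinase of cytokinesis, from 60.0 ± 6.67 to 28.9 ± 4.86 CPM (fell by 1.06, adjusted p = 0.000351), *Troap* (0.91 lower, adjusted p = 0.000608) and the condensin subunit *Ncaph* (0.85 lower, adjusted p = 0.000633). The 3 higher genes with the smallest adjusted p were *Orc2* of the origin recognition complex, from 52.7 ± 6.82 to 104 ± 13.5 CPM (rose by 0.98, adjusted p = 0.000697), *Ccnh*, the cyclin of the Cdk-activating kinase (0.60 higher, adjusted p = 0.0076), and *Tfdp2*, a partner of E2F factors (0.42 higher, adjusted p = 0.0234). With the *Slc2a1* gRNA 16 of 173 changed (9.25%, beside 4.64% of all genes), 14 lower and 2 higher, and 11 of the lower genes were among the 88 G2/M genes (12.5%), whose median was -0.24, where 2.39% of all genes fell. None of these genes was called without any 1 of the control replicates, without *Slc2a1* gRNA replicate 1 or 2, or with limma on either TPM scale. Few genes of any kind were called then: 0.507, 0.0773, 0.316, 0.441, 0.167, 0 and 0.376% of all genes in that order. The leading lower genes there were *Ckap2* (0.52 lower, adjusted p = 0.0174), *Rbl2*, the pocket protein p130 (0.56 lower, adjusted p = 0.018), and *Ncaph* (0.54 lower, adjusted p = 0.0204), and the 2 higher were *Dctd*, which makes the precursor of thymidylate (1.47 higher, adjusted p = 0.0269), and *E2f4* (0.46 higher, adjusted p = 0.0327). Between the gRNA populations 3 of 173 differed (1.73%), beside 2.31% of all genes. *Orc2* was higher (0.58, adjusted p = 0.0352) and *Cit* and *Ube2c* were lower (0.62, adjusted p = 0.0249, and 0.47, adjusted p = 0.0419) with the 5 gRNAs. The count was 0 without control replicate 3, without *Slc2a1* gRNA replicate 2 or 3, with the 2 groups fitted alone and with limma, and 10 with DESeq2, which called 5.61% of all genes. The fits with a count of 0 called 1.07, 0.291, 0.886, 0.883, 0.224 and 0.231% of all genes in that order.

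**Figure D5:**
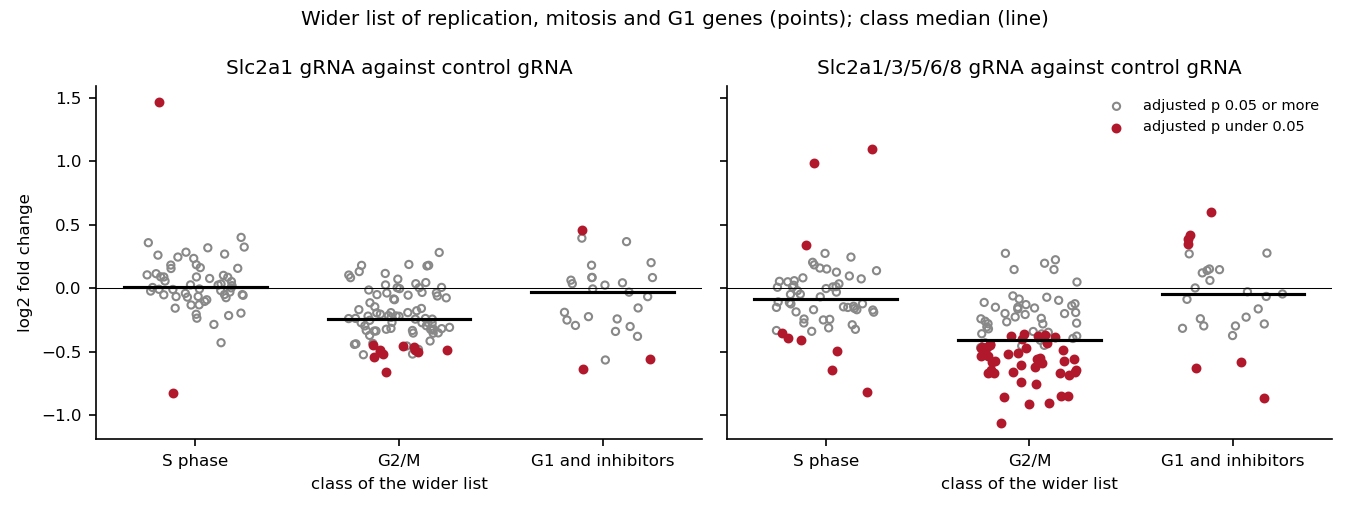
Log2 fold change against control gRNA (y axis) of the 173 tested genes of the wider list, by class (x axis), for the *Slc2a1* gRNA (left) and *Slc2a1/3/5/6/8* gRNA (right) populations. Points are genes, filled red at an adjusted p under 0.05, and lines are class medians. The G2/M medians lie at -0.24 and -0.41, and the S phase medians at 0.013 and -0.088.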

How the data were processed

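RNA of 9 samples (3 populations, 3 replicates each) was quantified by the authors with Salmon (version 1.5.1 in the submitters' processing notes) after oligo-dT priming. The deposited tables give an estimated count and a length-corrected TPM value for 53077 gene symbols, and the annotation is not given in the sources used here. After rounding, counts went into a single edgeR 4.0.16 fit of all 9 samples (R 4.3.3, TMM, default filter on low counts, quasi-likelihood test, adjusted p under 0.05), with 13834 genes tested. Replicate number entered as a block, since a figure legend of the study names a paired test. Nothing beyond the term biological replicates says how the cultures were separated, so p-values measure the spread between these samples. The members and lists were chosen with earlier results of these data known. Per-sample values are given for members past the threshold (at most 14 a comparison, by smallest adjusted p) and for the G1 cyclins, Cdk4, Cdk6 and the inhibitors, and other members by range and counts. Mcm2, Mcm5, Mcm6 and Cdc6 were added to these after their values were seen. From the wider list the 3 higher and 3 lower genes with the smallest adjusted p are named.

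Alternatives were DESeq2 1.42.0, a fit without the block, library totals in place of TMM, no filter, a minimum of 10 counts in each sample, a fit of the 2 groups of a comparison alone, limma 3.58.1 on log2(TPM + 1) and log2(TPM + 0.1), and leaving out each library. Exon overlap was read from GENCODE M21 (GRCm38) and promoters from RefSeq (GRCm38.p6). Members tested held at least 13 estimated counts per sample, and replicates of a group differed by more than sampling noise (chi-squared over its degrees of freedom, 20.7 or more).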

Additional observations from a re-analysis of the deposited data

Results flagged for a closer look

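Between the 5 gRNA and the *Slc2a1* gRNA populations 3 of 51 members (5.88%) differed in a direct test of that difference (edgeR, adjusted p under 0.05), and all 3 were lower, beside 2.31% of all genes that differed and 0.947% that were lower. *Cdc45* was lower in the 5 gRNA population, with a log2 difference of -0.68 (adjusted p = 0.0137), and was lower in 3 of 3 same-numbered pairs. For *Cdk1* the log2 difference was -0.55 (adjusted p = 0.0396), also in 3 of 3 pairs. The value for *Aurkb* was -0.49 (adjusted p = 0.0362), again in 3 of 3 pairs. Of all genes, 17.2% were lower in all 3 pairs. Since the 3 members were chosen as called lower, their pairs are no further test. Over the 17 alternatives the adjusted p ranged from 2.28e-05 to 0.291 for *Cdc45*, from 0.0013 to 0.449 for *Cdk1* and from 0.00267 to 0.329 for *Aurkb*, and the direction held in all of them. The call was lost in 4 of the 17 for *Cdc45*, in 13 for *Cdk1* and in 14 for *Aurkb*.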

How the results depend on the processing

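With the 5 gRNAs the 24 members called kept their sign in all 17 alternatives, and 5 of them (*Cdc45*, *Cdc25b*, *Cdc25c*, *Cdc20* and *Aurkb*) were called in each. The number called was 7 with limma on either TPM scale (3.13 and 3.34% of all genes, against 15.9%) and 7 to 24 when 1 library was left out (4.45 to 17.7% of all genes). The wider list gave 13 and 15 calls with limma (TPM + 1 and TPM + 0.1) and 19 to 66 without 1 library, against 60. With the *Slc2a1* gRNA the members called were 8 with DESeq2, 8 with no filter, 15 with only the 2 groups compared, 0 and 2 with limma, and 0 to 8 without 1 library, against 5. Calls over all genes moved too, to 9.07%, 5.47%, 16.7%, 0% and 0.376% in the first 5 of these and 0.0773 to 8.88% without 1 library, against 4.64%. The wider list gave 27, 26, 51, 0 and 0 in the same order, 25 with total count normalization (5.33% of all genes) and 0 to 25 without 1 library, against 16. Between the gRNA populations the members called were 8 with DESeq2, 7 with no filter, 1 with total counts, 1 with the 2 groups alone, 0 with limma and 0 to 3 without 1 library, against 3 (5.61, 3.68, 2.13, 0.883, 0.224 and 0.231% of all genes in the first 6, against 2.31%), and the wider list gave 10, 7, 1, 0 and 0, and 0 to 4, against 3. Between the gRNA populations 0.291 to 2.64% of all genes were called without 1 library. The cause of these differences was not tested.

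Without the replicate block the members called were 4 with the *Slc2a1* gRNA, 23 with the 5 gRNAs and 1 between the gRNA populations (3.86, 13.6 and 0.932% of all genes), and the wider list gave 9, 53 and 1. Deviations of same-numbered samples from their group means correlated over genes at 0.111 to 0.215 between control and the *Slc2a1* gRNA population, at -0.065 to 0.162 between control and the 5 gRNA population, and at -0.107 to -0.0341 between the gRNA populations, so the pairing showed in the first comparison alone.

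Class medians moved as follows. The S phase median with the *Slc2a1* gRNA was -0.074 with total counts and -0.14 with limma on either scale, against 0.018, and -0.030 to 0.095 without 1 library. The median of all genes there was -0.095 with total counts and -0.11 and -0.16 with limma, against -0.0013. The S phase median with the 5 gRNAs was -0.10 with total counts and -0.15 with limma on either scale, against -0.051. With the *Slc2a1* gRNA the G1 median was -0.13 with total counts, -0.017 with no filter, and -0.11 and -0.12 with limma, against -0.035. The G2/M median there was -0.42 and -0.43 with limma, against -0.28. The G1 median with the 5 gRNAs was -0.22 with total counts, -0.12 with no filter, and -0.10 and -0.12 with limma, against -0.17, and -0.20 to -0.098 without 1 library. Between the gRNA populations the G1 median was -0.10, -0.090, 0.0087 and 0.0080 in that order, against -0.15, and -0.20 to -0.092 without 1 library, and the G2/M median was -0.11 and -0.12 with limma, against -0.23, and -0.28 to -0.15 without 1 library. Without 1 library the other medians were -0.36 to -0.21 (G2/M) and -0.059 to -0.0074 (G1) with the *Slc2a1* gRNA, -0.089 to 0.0054 (S phase) and -0.62 to -0.44 (G2/M) with the 5 gRNAs, and -0.28 to -0.12 (S phase) between the gRNA populations.

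Signs turned only for fold changes that were not called. *Ccnd3* with the *Slc2a1* gRNA was -0.069 with total counts, -0.12 with limma on either scale and -0.025 to 0.10 without 1 library. *Ccne1* with the 5 gRNAs was -0.040 with total counts, -0.0019 with at least 10 counts in every sample, -0.036 and -0.037 with limma and -0.067 to 0.077 without 1 library. *Cdkn2c* between the gRNA populations was 0.096 and 0.098 with limma. Without 1 library the ranges with the *Slc2a1* gRNA were -0.19 to 0.19 for *Ccne2*, -0.17 to 0.010 for *Cdkn2c* and -0.43 to 0.23 for *Rb1*, and between the gRNA populations -0.073 to 0.16 for *Cdk4*. Depth limits *Rb1*, *Bub1* and *Cdk6*, whose counts were the lowest.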
